A study of Homo sapiens with 12 samples.

Results

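The comparison set the Z9 line against the Z2 line of HepG2, a human hepatoma cell line in long use that secretes plasma proteins of liver. Its members are 6 of the 12 libraries of the series, chosen by name: the 3 wells of the Z2 line and the 3 wells of the Z9 line. Z2 cells had received the CRISPR vector sgZHX3-2 and Z9 cells the vector sgZHX3-9, both directed at ZHX3, and both lines carry the genotype label ZHX3-depleted. The other 6 libraries were 3 wells of an empty-vector line (Empty) and 3 wells of a line with the vector sgZHX3-5 (Z5). They entered the fit through the gene filter, the scaling and the spread, but are not among the wells compared. All 4 lines shared the lipofection, the selection with blasticidin and the low-glucose medium with serum, and each was seeded in 3 wells of 1 plate format. Whether a stable line is 1 clone or a pool of cells is not given in the sources used here. Wells of a line are the replicates, so a p-value here reflects well-to-well variation within a line, which may be technical, and not variation among independently made lines with the same vector.

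ZHX3, a nuclear protein with zinc fingers and homeodomains, is known as a transcriptional repressor that pairs with its relatives ZHX1 and ZHX2 and with the subunit NFYA of NF-Y, the factor that binds CCAAT letters in promoters. Many of the genes below belong to cholesterol synthesis, in which acetyl-CoA is built into mevalonate, isoprenoid units, squalene and finally sterols. In liver cells the pathway is switched on when membrane sterol runs low: SCAP escorts the SREBP proteins out of the endoplasmic reticulum, INSIG proteins hold them back, and the released factors bind promoters next to NF-Y.

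ZHX3 itself (GRCh38.p14 chromosome 20, 41178455 to 41317731) was at 34.9, 33.8 and 34.8 CPM in Z2 a, b and c and 34.7, 33.5 and 34.8 CPM in Z9 a, b and c. The wells of the 2 lines overlapped fully, and no difference was called (log2 fold change -0.01 ± 0.05 (SE), edgeR adjusted p = 0.948). In the other lines it ranged from 32.7 to 33.5 CPM (Empty) and from 32.5 to 33.5 CPM (Z5). CPM are counts scaled to a common library total, on TMM-scaled library sizes, and a call means an adjusted p under 0.05 over all tested genes. RNA counts over the whole gene do not show whether a vector cut its target. ZHX2 was at 104, 122 and 122 CPM in Z2 a, b and c and 97.3, 94.5 and 90.8 CPM in Z9 a, b and c, with every Z9 well below every Z2 well (log2 fold change -0.30 ± 0.06 (SE), edgeR adjusted p = 0.0151). ZHX1 was not called (log2 fold change -0.06 ± 0.07 (SE), edgeR adjusted p = 0.608). The call of ZHX2 ended without Z2 c or Z9 b or c (highest edgeR adjusted p 0.0657).

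Some libraries stood apart before any gene was considered. Over all tested genes, the root mean square difference of log2 CPM between Z9 wells was 0.289 to 0.321. Z2 b lay 0.408 from Z2 a and 0.364 from Z2 c. Z2 a lay only 0.314 to 0.328 from the Z9 wells, closer than to its sister Z2 b. Its distance to its other sister Z2 c, 0.324, was within that range. Z2 c lay 0.329 to 0.375 from the Z9 wells, so Z2 a and Z2 c were not clearly nearer to each other than to Z9. Z2 b also differed by base composition of the transcripts: its genes in the lowest of 5 GC groups had a median of 0.146 log2 units above their mean over 12 libraries, and those in the highest group lay at -0.174. The Z9 wells had the opposite and smaller slope, from -0.0489 to -0.0373 in the lowest group to 0.0309 to 0.0630 in the highest. Z2 a and Z2 c were near 0 throughout. The part of this base composition in the calls was not tested beyond the correction and the omission of Z2 b given here. In bulk RNA, fewer cells of a type and less RNA per cell cannot be told apart. Total counts of the 6 wells ranged from 52465405 to 57624300.

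**Figure D1:**
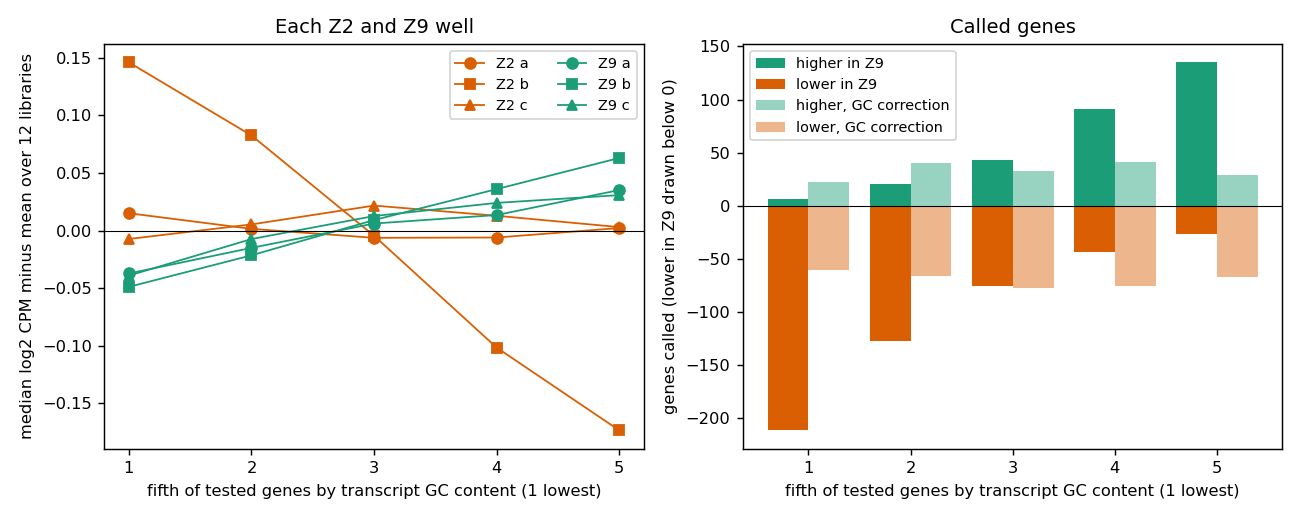
Left, the median over genes of log2 CPM minus each gene's mean over 12 libraries, for each Z2 and Z9 well (lines), in 5 equal groups of tested genes by transcript GC content (x axis). Right, the number of genes called in each group, with those lower in Z9 drawn below 0 and lighter bars after the GC correction: Z2 b falls from 0.146 to -0.174, and the calls turn from 6 higher and 212 lower in the lowest group to 135 higher and 27 lower in the highest.

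Between the 2 lines, 790 of 15289 tested genes differed (5.17%), of which 299 were higher in Z9 (1.96%) and 491 lower (3.21%). The differences were small: the median size among called genes was 1.22-fold, and 91.8% were under 1.5-fold. Only 22 called genes (0.144%) differed at least 2-fold, 10 upward and 12 downward. Calls followed GC content, with a median of 58.1% GC among genes higher in Z9, 42.6% among those lower and 49.5% over all tested genes. After a correction of each library for GC content, 520 genes were called (3.4%), 168 higher (1.1%) and 352 lower (2.3%). Each of the 5 GC groups then held 22 to 41 genes called higher and 61 to 78 called lower. Without Z2 b, 216 were called (1.4%), 68 higher (0.439%) and 148 lower (0.956%). Those calls still followed GC content. In the lowest GC group 2 were higher and 58 lower, and in the highest 28 were higher and 14 lower. With both changes, 169 were called (1.09%), 42 higher (0.271%) and 127 lower (0.821%). A fit of the 6 wells alone called 32 (0.215%), 6 higher (0.0402%) and 26 lower (0.174%).

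The count also hung on single wells. It was 2399 without Z2 a, 316 without Z2 c, 81 without Z9 a, 75 without Z9 b and 219 without Z9 c. Wells outside the comparison also moved it, to 456 without Empty b, 518 without Empty c, 372 without Z5 b and 452 without Z5 c. No gene called with all 12 libraries changed direction in any of these fits. For these reasons the genes below are ordered by how they held: first the 25 genes called in every fit that left out 1 Z2 or Z9 well and in the fit of the 6 wells alone, then lists of genes by role. For each other gene, the libraries whose omission ended its call are named.

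**Figure D2:**
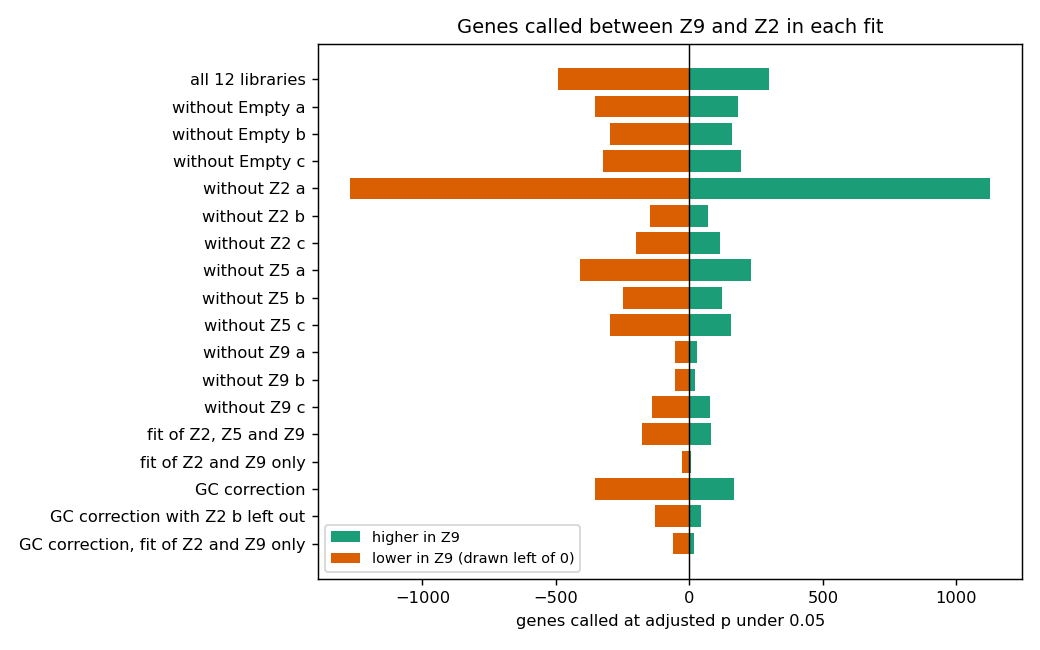
Number of genes called between Z9 and Z2 (x axis) in the fit of all 12 libraries, in fits without 1 library, in fits of fewer lines and after GC correction (y axis), with genes lower in Z9 drawn left of 0. The bars shrink to 81 and 75 calls without Z9 a or Z9 b and grow to 2399 without Z2 a.

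Of the 25 genes that held, 4 were higher in Z9 and 21 lower, and 22 of the 25 also held through the same fits after the GC correction. EVI5L, ACSL4 and ACSL3, given below, did not hold in all of those corrected fits. The sharpest was GPC4 (GRCh38.p14 chromosome X, 133300103 to 133415489), which encodes glypican 4, a heparan sulfate proteoglycan of the cell surface. It had 13, 23 and 18 reads in the Z2 wells and 103, 111 and 109 in the Z9 wells, or 0.244, 0.442 and 0.339 CPM in Z2 a, b and c and 1.90, 1.92 and 1.97 CPM in Z9 a, b and c. No well of one line came near the other: the summed counts of 323 and 54 gave a ratio of 5.66 (exact 95% interval 4.23 to 7.70, counting error only), with an edgeR adjusted p of 4.13e-05. The Empty wells held 2, 1 and 3 GPC4 reads and the Z5 wells 94, 85 and 77, so its RNA was low in Z2 and lowest in Empty.

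The other 3 higher genes were modest. FGB, the beta chain of fibrinogen, was at 299, 289 and 275 CPM in Z2 a, b and c and 356, 375 and 375 CPM in Z9 a, b and c (log2 fold change 0.36 ± 0.05 (SE), edgeR adjusted p = 0.00285). All Z9 wells lay above all Z2 wells. PLD6, a phospholipase D family protein of the mitochondrial surface, was at 8.59, 7.88 and 7.71 CPM in Z2 a, b and c and 11.7, 11.7 and 11.9 CPM in Z9 a, b and c (log2 fold change 0.54 ± 0.08 (SE), edgeR adjusted p = 0.00313). The Z9 wells of PLD6 were nearly equal to one another. EVI5L, which activates the GTPase of Rab proteins, was at 8.87, 8.28 and 8.39 CPM in Z2 a, b and c and 13, 12.7 and 11.4 CPM in Z9 a, b and c (log2 fold change 0.54 ± 0.09 (SE), edgeR adjusted p = 0.00572), again without overlap.

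Among the 21 lower genes outside lipid metabolism, SUSD2, a membrane protein with a sushi domain (GRCh38.p14 chromosome 22, 24181487 to 24189106), fell most. It was at 18.1, 21.6 and 23.5 CPM in Z2 a, b and c and 8.98, 11.8 and 12.2 CPM in Z9 a, b and c (log2 fold change -0.94 ± 0.12 (SE), edgeR adjusted p = 0.00145). Every Z9 well was below every Z2 well, with Z9 a lowest. MAB21L3 was at 9.64, 11.6 and 10.9 CPM in Z2 a, b and c and 6.29, 6.86 and 6.56 CPM in Z9 a, b and c (log2 fold change -0.71 ± 0.11 (SE), edgeR adjusted p = 0.00271). GLRX, the glutaredoxin that reduces mixed disulfides of proteins with glutathione, was at 151, 181 and 167 CPM in Z2 a, b and c and 105, 113 and 115 CPM in Z9 a, b and c (log2 fold change -0.58 ± 0.08 (SE), edgeR adjusted p = 0.00119). In both, Z2 b was the highest well, and the lines did not overlap. CPVL, a carboxypeptidase, was at 58.9, 64.3 and 63.4 CPM in Z2 a, b and c and 44.3, 45.2 and 42.1 CPM in Z9 a, b and c (log2 fold change -0.50 ± 0.05 (SE), edgeR adjusted p = 1.93e-04), with little spread within either line.

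The next group held signalling and membrane genes. MALT1, the paracaspase of NF-kB signalling, was at 113, 151 and 122 CPM in Z2 a, b and c and 87.2, 84.8 and 85.3 CPM in Z9 a, b and c (log2 fold change -0.59 ± 0.08 (SE), edgeR adjusted p = 0.00168). LPAR6, a receptor for lysophosphatidic acid, was at 67.8, 89.9 and 75.5 CPM in Z2 a, b and c and 49.9, 53.2 and 52.4 CPM in Z9 a, b and c (log2 fold change -0.58 ± 0.08 (SE), edgeR adjusted p = 0.00142). In both genes Z2 b was well above its sister wells, and without Z2 b the log2 fold changes were -0.45 and -0.47. FZD4, a Frizzled receptor, was at 85.5, 95.4 and 91.6 CPM in Z2 a, b and c and 68.9, 68.6 and 69.4 CPM in Z9 a, b and c (log2 fold change -0.40 ± 0.05 (SE), edgeR adjusted p = 0.00158). DLK1, an imprinted transmembrane protein of fetal liver and hepatoblasts, was at 737, 784 and 882 CPM in Z2 a, b and c and 570.2, 611 and 565 CPM in Z9 a, b and c (log2 fold change -0.46 ± 0.07 (SE), edgeR adjusted p = 0.00251). Neither overlapped between lines. The remaining ones, given as log2 fold change and edgeR adjusted p, were TMEM121 (-0.48, 0.00935), PLEKHA2 (-0.41, 0.00396), CETN2 (-0.41, 0.00142) and PLLP (-0.39, 0.00119). CETN2 encodes centrin 2, a centriole protein, PLEKHA2 a phosphoinositide-binding adaptor and PLLP plasmolipin, a membrane protein.

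**Figure D3:**
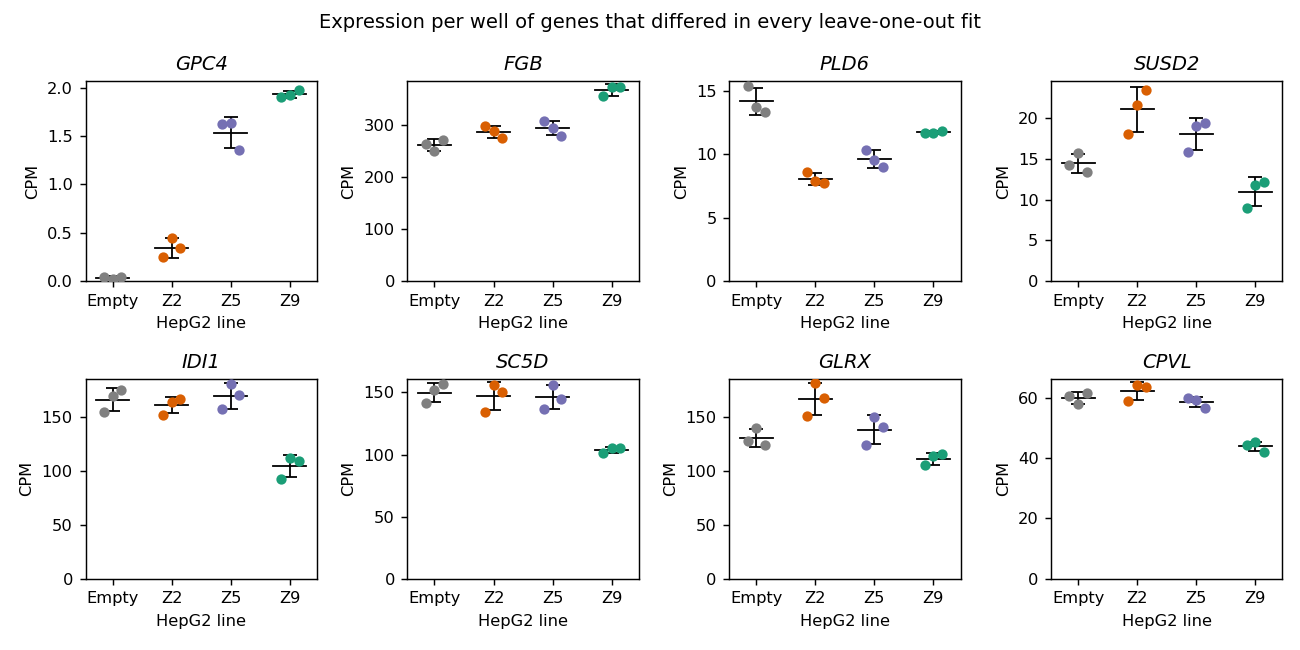
CPM per well (points, y axis from 0) in the Empty, Z2, Z5 and Z9 lines (x axis) of 8 genes that were called in each fit without 1 Z2 or Z9 well, with the mean (long bar) and SD (whiskers, n = 3 wells). GPC4, FGB and PLD6 are higher and the other 5 lower in every Z9 well than in every Z2 well.

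Cholesterol synthesis was the list that stood lowest in Z9. Of its 21 tested genes, 0 rose and 11 fell, against 1.96% and 3.21% of all tested genes, and the list's median log2 fold change was -0.33 beside 0.00147 over all. In 14 of the 21 every Z9 well was below every Z2 well, against 12.6% of all tested genes, and 19 of the 21 had a negative difference. The count and the median stayed close both without Z2 b (10 fell, median -0.39) and after the GC correction (11 fell, median -0.37), and 10 fell with both changes (median -0.39). Its median GC content was 50.2%, near the 49.5% of all tested genes. Fewer members passed without Z2 c (7), Z9 a (6) or Z9 b (6), and 4 in the fit of the 6 wells alone (median -0.32).

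Members are given here in the order of the pathway, beginning with the promoters of 5 of them, chosen after their values were seen, to show where CCAAT, the letters NF-Y binds, lies in genes that fell and in genes that did not. Each line holds the 250 bases before a RefSeq start on the gene's strand (GRCh38.p14), with CCAAT or its reverse complement ATTGG in capitals: MVK at chr12:109573544-109573793 and MSMO1 at chr4:165327419-165327668 fell and have 5 and 4 matches, NSDHL at chrX:152830813-152831062 was not called and has 5, and the 2 members without a negative difference, TM7SF2 at chr11:65111622-65111871 and PMVK at chr1:154936720-154936969, have 1 and 0. PMVK is on the minus strand and the others on the plus strand.
MVK: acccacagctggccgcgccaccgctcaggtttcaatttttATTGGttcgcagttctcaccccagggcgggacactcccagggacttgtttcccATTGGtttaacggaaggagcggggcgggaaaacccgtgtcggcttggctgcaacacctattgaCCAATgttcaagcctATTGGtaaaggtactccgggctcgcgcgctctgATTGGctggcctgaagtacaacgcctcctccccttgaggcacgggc
MSMO1: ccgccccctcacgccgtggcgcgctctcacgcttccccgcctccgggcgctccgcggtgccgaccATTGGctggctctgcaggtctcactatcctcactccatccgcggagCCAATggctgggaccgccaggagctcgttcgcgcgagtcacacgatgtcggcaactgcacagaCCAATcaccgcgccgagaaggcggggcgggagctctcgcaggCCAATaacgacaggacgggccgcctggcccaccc
NSDHL: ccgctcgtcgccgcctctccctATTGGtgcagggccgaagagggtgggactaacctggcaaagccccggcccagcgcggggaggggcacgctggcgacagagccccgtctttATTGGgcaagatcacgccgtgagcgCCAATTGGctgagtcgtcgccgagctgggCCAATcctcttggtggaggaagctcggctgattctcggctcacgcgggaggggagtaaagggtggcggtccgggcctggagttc
TM7SF2: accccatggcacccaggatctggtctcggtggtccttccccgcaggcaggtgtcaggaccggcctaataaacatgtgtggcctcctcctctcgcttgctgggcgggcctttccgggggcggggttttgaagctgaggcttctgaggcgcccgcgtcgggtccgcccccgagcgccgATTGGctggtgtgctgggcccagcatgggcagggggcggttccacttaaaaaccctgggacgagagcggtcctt
PMVK: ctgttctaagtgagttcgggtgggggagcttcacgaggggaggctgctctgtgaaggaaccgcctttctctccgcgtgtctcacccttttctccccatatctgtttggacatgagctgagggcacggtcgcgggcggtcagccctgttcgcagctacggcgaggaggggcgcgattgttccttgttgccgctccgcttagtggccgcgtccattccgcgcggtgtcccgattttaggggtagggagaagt
The table of promoters held 23 starts for 16 of the 21 genes. CCAAT was found on either strand in 16 of the 23 starts (69.6%), belonging to 14 genes, and in 9 of the 11 starts (81.8%) of the 7 matched genes that fell. In the 9 matched genes that were not called it was in 7 of 12 starts (58.3%), and CYP51A1, which was not called, had none. Match numbers overlapped: HSD17B7 and SC5D, which fell, had 1 per start, and EBP and MVD, which were not called, had 3. Of all 35116 starts, 32.0% held it, and of those of tested genes 32.8%. The letters TCACNCCAC of a sterol regulatory element, searched on both strands, were in 0 of the 23 starts and in 0.883% of all starts, and the 2 motifs share no match by their letters. A match is a description of the letters and not a measured binding site, and the absence of one says only that these letters are not in this window.

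The first steps make mevalonate. ACAT2, which joins acetyl-CoA units, was at 178, 176 and 205 CPM in Z2 a, b and c and 129, 139 and 132 CPM in Z9 a, b and c (log2 fold change -0.49 ± 0.07 (SE), edgeR adjusted p = 0.00175). HMGCS1, the cytosolic HMG-CoA synthase, was at 324, 335 and 336 CPM in Z2 a, b and c and 219, 263 and 281 CPM in Z9 a, b and c (log2 fold change -0.38 ± 0.08 (SE), edgeR adjusted p = 0.0152). In both genes the lines did not overlap and Z9 a was the lowest well, and ACAT2 held in every omission. MVK, mevalonate kinase, was at 43.9, 44.3 and 51.5 CPM in Z2 a, b and c and 33.9, 38.7 and 37.4 CPM in Z9 a, b and c (log2 fold change -0.35 ± 0.08 (SE), edgeR adjusted p = 0.0225). PMVK (log2 fold change 0.29 ± 0.11, edgeR adjusted p = 0.135) and MVD (-0.31 ± 0.14, 0.201), which act after MVK, were not called, and their lines overlapped. The call of HMGCS1 ended without Z2 b or Z9 a or b (highest edgeR adjusted p 0.0695). MVK lost its call without Z2 c or any Z9 well (highest edgeR adjusted p 0.0923). HMGCS1 was not called after the GC correction (edgeR adjusted p = 0.0563).

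The isoprenoid and squalene steps followed the same direction. IDI1 (GRCh38.p14 chromosome 10, 1039152 to 1056704), which isomerises isopentenyl diphosphate and was the most changed member, was at 152, 164 and 166 CPM in Z2 a, b and c and 92.5, 112 and 109 CPM in Z9 a, b and c (log2 fold change -0.62 ± 0.07 (SE), edgeR adjusted p = 4.95e-04). Its lowest Z2 well was well above its highest Z9 well, and it held in every omission, while Empty wells were at 154 to 175 and Z5 wells at 157 to 180.0 CPM, close to Z2. FDPS, farnesyl diphosphate synthase, was at 173, 145 and 189.9 CPM in Z2 a, b and c and 126, 136 and 129 CPM in Z9 a, b and c (log2 fold change -0.38 ± 0.08 (SE), edgeR adjusted p = 0.0231). FDFT1, squalene synthase, was at 353, 366 and 420.0 CPM in Z2 a, b and c and 255, 317 and 309 CPM in Z9 a, b and c (log2 fold change -0.37 ± 0.08 (SE), edgeR adjusted p = 0.0275). Z2 b was the lowest Z2 well of FDPS, yet still above every Z9 well. SQLE, the squalene epoxidase, was at 330.1, 336 and 371 CPM in Z2 a, b and c and 245, 284 and 260.1 CPM in Z9 a, b and c (log2 fold change -0.40 ± 0.07 (SE), edgeR adjusted p = 0.00745). The call of SQLE held in all 12 omissions but not in the fit of the 6 wells alone. GGPS1, which makes geranylgeranyl diphosphate, missed the threshold (log2 fold change -0.23, edgeR adjusted p = 0.0558). The call of FDPS ended without Z2 c or any Z9 well (highest edgeR adjusted p 0.0867). FDFT1 lost its call without Z2 b or c or Z9 a or b (highest edgeR adjusted p 0.0925).

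Among the sterol steps after squalene, 3 genes fell. MSMO1, the C4-methyl sterol oxidase, was at 232, 249 and 245 CPM in Z2 a, b and c and 149, 189 and 189 CPM in Z9 a, b and c (log2 fold change -0.46 ± 0.08 (SE), edgeR adjusted p = 0.00745). SC5D, the sterol C5-desaturase, was at 134, 156 and 150.5 CPM in Z2 a, b and c and 101, 105 and 106 CPM in Z9 a, b and c (log2 fold change -0.50 ± 0.06 (SE), edgeR adjusted p = 9.36e-04). HSD17B7, a 3-keto sterol reductase, was at 32, 29.95 and 36 CPM in Z2 a, b and c and 25.6, 26.2 and 26.2 CPM in Z9 a, b and c (log2 fold change -0.33 ± 0.07 (SE), edgeR adjusted p = 0.0151). None of the 3 overlapped between lines. MSMO1 and SC5D held in all 12 omissions, but MSMO1 was not called in the fit of the 6 wells alone. Others, as log2 fold change and edgeR adjusted p, were LSS (-0.26, 0.193), CYP51A1 (-0.20, 0.0816), TM7SF2 (0.02, 0.943), NSDHL (-0.17, 0.165), EBP (-0.11, 0.371) and DHCR7 (-0.32, 0.0890), which were not called. Of these, CYP51A1 and DHCR7 had every Z9 well below every Z2 well, and LSS, TM7SF2, NSDHL and EBP overlapped. C14orf1, now named ERG28, which tethers sterol enzymes in the endoplasmic reticulum and is not in the list, was at 71.9, 76.7 and 82.8 CPM in Z2 a, b and c and 51.7, 59.2 and 53.8 CPM in Z9 a, b and c (log2 fold change -0.49 ± 0.08 (SE), edgeR adjusted p = 0.00584). The call of HSD17B7 ended without Z2 c or Z9 a or b (highest edgeR adjusted p 0.0651).

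**Figure D4:**
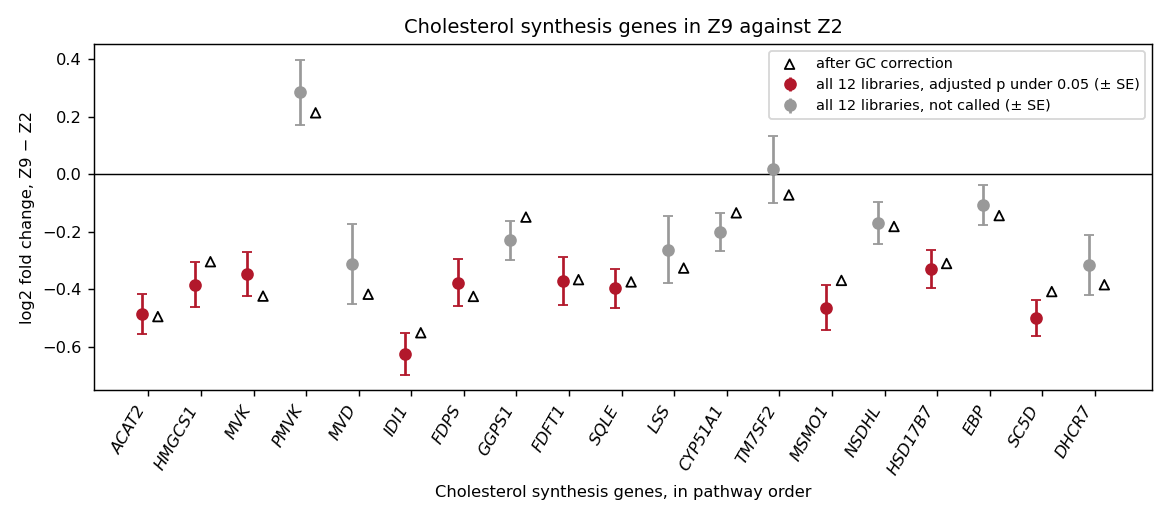
Log2 fold change of Z9 minus Z2 (y axis) for the cholesterol synthesis genes named here in pathway order (x axis), as circles ± SE from the fit of 12 libraries (red, adjusted p under 0.05; grey, not called) and as open triangles after GC correction. In the fit of 12 libraries, PMVK at 0.29 and TM7SF2 at 0.02 lie above 0, and the other circles lie below it.

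Genes of cholesterol uptake and of SREBP control moved less, with a median log2 fold change of -0.08. Of 20 tested, 1 rose and 3 fell, against 1.96% and 3.21% of all tested genes. STARD4, a sterol carrier, was at 92.2, 89.2 and 94.5 CPM in Z2 a, b and c and 73.9, 75.9 and 69.9 CPM in Z9 a, b and c (log2 fold change -0.33 ± 0.06 (SE), edgeR adjusted p = 0.0127). ABCA1, the exporter that loads cholesterol onto apolipoprotein A-I, was at 155, 177 and 170.3 CPM in Z2 a, b and c and 137, 137 and 136 CPM in Z9 a, b and c (log2 fold change -0.29 ± 0.06 (SE), edgeR adjusted p = 0.0152). INSIG2, which retains SCAP in the endoplasmic reticulum, was at 264, 273 and 251 CPM in Z2 a, b and c and 235, 221 and 221 CPM in Z9 a, b and c (log2 fold change -0.22 ± 0.05 (SE), edgeR adjusted p = 0.0283). These 3 fell without overlap. SCAP, the escort of SREBP proteins, rose and was at 124, 128 and 135 CPM in Z2 a, b and c and 147, 148 and 145 CPM in Z9 a, b and c (log2 fold change 0.19 ± 0.05 (SE), edgeR adjusted p = 0.0336). The regulators themselves were not called: SREBF2 had a log2 fold change of -0.08 ± 0.06 (edgeR adjusted p = 0.469) and SREBF1 0.01 ± 0.06 (0.938). The call of STARD4 ended without Z9 a (highest edgeR adjusted p 0.0506). ABCA1 lost its call without Z9 a or b (highest edgeR adjusted p 0.0676). For INSIG2 the call ended without Z2 b or any Z9 well (highest edgeR adjusted p 0.112). The call of SCAP ended without Empty b, Z2 b, Z5 b or c or any Z9 well (highest edgeR adjusted p 0.120). STARD4, INSIG2 and SCAP were not called after the GC correction (edgeR adjusted p = 0.147, 0.164 and 0.321).

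Of the genes that make fatty acids and triglycerides, 0 rose and 7 fell of 23 tested, against 1.96% and 3.21% of all tested genes. Their median log2 fold change was -0.12. The number that fell was 7 without Z2 b and 6 after the GC correction, but 3 without Z2 c, 2 without Z9 a, 4 without Z9 b, 3 without Z9 c and 3 in the fit of the 6 wells alone. ACSL4 and ACSL3 activate long-chain fatty acids to acyl-CoA. ACSL4 was at 656, 786 and 745 CPM in Z2 a, b and c and 507, 555 and 523 CPM in Z9 a, b and c (log2 fold change -0.46 ± 0.07 (SE), edgeR adjusted p = 0.00285), and ACSL3 at 718, 748 and 842 CPM in Z2 a, b and c and 567, 589 and 539.5 CPM in Z9 a, b and c (log2 fold change -0.45 ± 0.08 (SE), edgeR adjusted p = 0.00745). Both held in every omission, and in both every Z9 well was below every Z2 well. After the GC correction ACSL3 stood at the threshold (edgeR adjusted p = 0.0504). ACLY, which splits citrate into cytosolic acetyl-CoA, was at 456, 457 and 517 CPM in Z2 a, b and c and 352, 412 and 383 CPM in Z9 a, b and c (log2 fold change -0.32 ± 0.07 (SE), edgeR adjusted p = 0.0257). ELOVL6, an elongase, was at 39.6, 38.9 and 39.8 CPM in Z2 a, b and c and 28.5, 33.3 and 31.8 CPM in Z9 a, b and c (log2 fold change -0.34 ± 0.07 (SE), edgeR adjusted p = 0.0149). PNPLA3, a lipid droplet acylhydrolase, was at 20.6, 22.7 and 25.4 CPM in Z2 a, b and c and 17, 18.6 and 17 CPM in Z9 a, b and c (log2 fold change -0.39 ± 0.08 (SE), edgeR adjusted p = 0.0231). Outside the naming rule, the other 2 that fell were the acetyl-CoA synthetase ACSS2 (-0.59, 0.0391) and the desaturase SCD (-0.34, 0.0365). The call of ELOVL6 ended without Z9 a (highest edgeR adjusted p 0.0717). ACLY lost its call without Z2 c or Z9 a or c (highest edgeR adjusted p 0.0988). For PNPLA3 the call ended without Z2 c or any Z9 well (highest edgeR adjusted p 0.0837). The call of ACSS2 ended without Empty b, Z2 b or c, Z5 b or any Z9 well (highest edgeR adjusted p 0.140). SCD lost its call without Empty b, Z2 b or c, Z5 b or c or any Z9 well (highest edgeR adjusted p 0.139). SCD was not called after the GC correction (edgeR adjusted p = 0.0554).

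In the lists of lipoproteins, fatty acid oxidation and lipid droplets, the genes called were lower in Z9. Among apolipoproteins and lipoprotein genes, 0 rose and 2 fell of 22 tested (median log2 fold change -0.10), against 1.96% and 3.21% over all. APOF, an apolipoprotein that inhibits cholesteryl ester transfer, was at 15.3, 17.9 and 18.4 CPM in Z2 a, b and c and 11.2, 11.9 and 11.5 CPM in Z9 a, b and c (log2 fold change -0.57 ± 0.09 (SE), edgeR adjusted p = 0.00285) and held in every omission. TTC39B, linked to HDL cholesterol and in no list, was at 25.9, 28.5 and 27 CPM in Z2 a, b and c and 19.4, 19.4 and 17.6 CPM in Z9 a, b and c (log2 fold change -0.53 ± 0.06 (SE), edgeR adjusted p = 5.19e-04) and held too. Neither overlapped between lines. C19orf80, now ANGPTL8, a regulator of lipoprotein lipase, was lower (log2 fold change -0.39, edgeR adjusted p = 0.0418). In fatty acid oxidation and ketone bodies, 0 rose and 1 fell of 23 tested (median log2 fold change -0.03), the 1 being HADHB of the mitochondrial trifunctional protein (-0.18, 0.0499). In lipid droplets and lipolysis, 0 rose and 1 fell of 10 tested (median log2 fold change -0.09), the 1 being the lysosomal acid lipase LIPA (-0.27, 0.0153). The call of LIPA ended without any Z9 well (highest edgeR adjusted p 0.0617). C19orf80 (ANGPTL8) lost its call without Empty b, Z2 c, Z5 b or c or any Z9 well (highest edgeR adjusted p 0.121). For HADHB the call ended without any Empty well, Z2 b or c, any Z5 well or any Z9 well (highest edgeR adjusted p 0.138). HADHB was not called after the GC correction (edgeR adjusted p = 0.0598).

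In bile acid synthesis and transport, 2 rose and 0 fell of 20 tested (median log2 fold change 0.02), against 1.96% and 3.21% over all. CYP7A1, the rate-limiting enzyme that turns cholesterol into bile acids, was at 0.714, 0.634 and 0.715 CPM in Z2 a, b and c and 1.31, 1.24 and 1.64 CPM in Z9 a, b and c (log2 fold change 1.02 ± 0.22 (SE), edgeR adjusted p = 0.0231). Its summed counts were 234 in Z9 and 109 in Z2, a ratio of 2.03 (exact 95% interval 1.61 to 2.57). SLCO1B3, a bile acid and drug uptake carrier, had 191 and 60 summed counts, a ratio of 3.01 (2.24 to 4.10, edgeR adjusted p = 0.0153). Both were scarce in all 6 wells, and neither overlapped between lines. The position of SLCO1B3 beside close relatives makes its counts uncertain. The call of SLCO1B3 ended without Z2 b or Z9 a or b (highest edgeR adjusted p 0.0728). CYP7A1 lost its call without Z2 b or c or any Z9 well (highest edgeR adjusted p 0.0765).

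Glycolysis and hypoxia genes were the next largest group, and their calls depended on single wells. Of 33 tested, 1 rose and 10 fell (median log2 fold change -0.15), against 1.96% and 3.21% of all tested genes. The members that fell numbered 2 without Z2 b, 1 without Z2 c, 12 without Z2 a and 4 without Z5 b, and 0 passed edgeR's test without Z9 a, b or c, where 13, 14 and 14 had an unadjusted p under 0.05. Without Z2 b 0 rose (median -0.11), after the GC correction 2 rose and 7 fell (median -0.16), and 0 passed edgeR's test in the fit of the 6 wells alone, where 14 had an unadjusted p under 0.05. DESeq2 called 10 with all 12 libraries, and 1526 of all 15289 tested genes. In edgeR's test with all 12 libraries, 3655 of the 15289 had an unadjusted p under 0.05. Negative differences were found in 27 of the 33. SLC2A1, the basal glucose transporter, was at 1399, 1654 and 1651 CPM in Z2 a, b and c and 1207, 1319.6 and 1316 CPM in Z9 a, b and c (log2 fold change -0.29 ± 0.07 (SE), edgeR adjusted p = 0.0275). SLC2A3, a high-affinity glucose transporter, was at 1094, 1645 and 1374 CPM in Z2 a, b and c and 746, 897 and 974 CPM in Z9 a, b and c (log2 fold change -0.65 ± 0.15 (SE), edgeR adjusted p = 0.0348). The Z2 wells of SLC2A3 spread widely, with Z2 b highest. PDK1, which switches pyruvate away from mitochondria, was at 136, 171 and 161 CPM in Z2 a, b and c and 122, 127 and 119.6 CPM in Z9 a, b and c (log2 fold change -0.34 ± 0.07 (SE), edgeR adjusted p = 0.0149). PGAM1 and BNIP3, a glycolytic mutase and a hypoxia-induced mitochondrial protein, had log2 fold changes of -0.21 and -0.25 (edgeR adjusted p = 0.0230 and 0.0289). Outside the naming rule, ALDOC (-0.57, 0.0378), PGK1 (-0.25, 0.0408), ENO2 (-0.31, 0.0436), LDHA (-0.22, 0.0499) and PFKFB4 (-0.31, 0.0352) fell. The call of PDK1 ended without any Z9 well (highest edgeR adjusted p 0.0577). PGAM1 lost its call without Z2 c or any Z9 well (highest edgeR adjusted p 0.0795). For SLC2A1 and BNIP3 the calls ended without Z2 b or c or any Z9 well (highest edgeR adjusted p 0.10 and 0.102). The calls of SLC2A3 and PFKFB4 ended without Z2 b or c, Z5 b or any Z9 well (highest edgeR adjusted p 0.146 and 0.103). ALDOC lost its call without Empty b, Z2 b or c, Z5 b or any Z9 well (highest edgeR adjusted p 0.169). For ENO2 the call ended without Empty c, Z2 b or c, Z5 b or c or any Z9 well (highest edgeR adjusted p 0.205). The call of PGK1 ended without Empty a or b, Z2 b or c, Z5 b or c or any Z9 well (highest edgeR adjusted p 0.157). LDHA lost its call without any Empty well, Z2 b or c, any Z5 well or any Z9 well (highest edgeR adjusted p 0.161). SLC2A3, PGK1 and LDHA were not called after the GC correction (edgeR adjusted p = 0.0504, 0.0773 and 0.0714).

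In gluconeogenesis and glycogen, 0 rose and 2 fell of 15 tested (median log2 fold change 0.03), against 1.96% and 3.21% over all. They were UGP2, which makes UDP-glucose (log2 fold change -0.25, edgeR adjusted p = 0.0170), and the glycogen branching enzyme GBE1 (-0.37, 0.0347). In the urea cycle and amino acid list, 0 rose and 1 fell of 27 tested (median log2 fold change 0.01), the 1 being the glycine decarboxylase GLDC (-0.21, 0.0304). In the nuclear-encoded respiratory chain, 0 rose and 1 fell of 30 tested (median log2 fold change -0.08), the 1 being the ATP synthase subunit gene ATP5O, now ATP5PO (-0.23, 0.0361). Single calls in the amino acid and respiratory chain lists were near the share of all tested genes that fell. Among mitochondrial carriers, 1 rose and 3 fell of 29 tested (median log2 fold change 0.03): SLC25A39, a glutathione importer, rose (0.28, 0.0329), and SLC25A24 (-0.32, 0.0294), SLC25A40 (-0.32, 0.0354) and SLC25A12 (-0.31, 0.0489) fell. The call of UGP2 ended without any Z9 well (highest edgeR adjusted p 0.0717). GLDC lost its call without Z2 c or any Z9 well (highest edgeR adjusted p 0.106). For SLC25A24 the call ended without Z2 b or c or Z9 a or b (highest edgeR adjusted p 0.112). The call of GBE1 ended without Z2 b or c or any Z9 well (highest edgeR adjusted p 0.165). SLC25A39 lost its call without Z2 b or c, Z5 b or any Z9 well (highest edgeR adjusted p 0.0988). For SLC25A40 the call ended without Empty b, Z2 b or c, Z5 b or any Z9 well (highest edgeR adjusted p 0.125). The call of ATP5O (ATP5PO) ended without Empty b or c, Z2 b or c, Z5 b or any Z9 well (highest edgeR adjusted p 0.111). SLC25A12 lost its call without any Empty well, Z2 b or c, Z5 b or c or any Z9 well (highest edgeR adjusted p 0.165). GBE1, SLC25A39, SLC25A24, SLC25A40 and SLC25A12 were not called after the GC correction (edgeR adjusted p = 0.0597, 0.0666, 0.0757, 0.141 and 0.0760).

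Secreted liver proteins went in both directions. In coagulation and fibrinolysis, 2 rose and 2 fell of 24 tested (median log2 fold change 0.06), against 1.96% and 3.21% over all. Besides FGB, F12, the contact factor, rose and was at 4.04, 4.27 and 4.59 CPM in Z2 a, b and c and 5.77, 6.03 and 5.28 CPM in Z9 a, b and c (log2 fold change 0.41 ± 0.11 (SE), edgeR adjusted p = 0.0479). PROS1, the cofactor protein S, was at 115, 122 and 118 CPM in Z2 a, b and c and 95.2, 94.7 and 92.2 CPM in Z9 a, b and c (log2 fold change -0.33 ± 0.05 (SE), edgeR adjusted p = 0.00173), and TFPI, the tissue factor pathway inhibitor, at 518, 621 and 529 CPM in Z2 a, b and c and 442, 438 and 429.6 CPM in Z9 a, b and c (log2 fold change -0.35 ± 0.06 (SE), edgeR adjusted p = 0.010). PROS1 and TFPI fell without overlap and held in all 12 omissions of 1 library, TFPI only just (highest adjusted p 0.0496). Neither was called in the fit of the 6 wells alone. In complement, 0 rose and 3 fell of 22 tested (median log2 fold change -0.02): CFI, the factor I protease, held in all 12 omissions (-0.30, edgeR adjusted p = 0.00584), and CD46 (-0.31, 0.0103) and MBL2 (-0.50, 0.0169), a regulator and a lectin, fell as well. None of these 3 was called in the fit of the 6 wells alone. Among plasma proteins, 0 rose and 3 fell of 25 tested (median log2 fold change 0.02): AFP (-0.30, 0.0294), TTR (-0.31, 0.0354) and SERPINA7 (-0.29, 0.0151). AFP is the fetal albumin relative, and TTR and SERPINA7 carry thyroid hormone. The call of CD46 ended without Z9 a (highest edgeR adjusted p 0.0509). SERPINA7 lost its call without Z9 a or b (highest edgeR adjusted p 0.0712). For MBL2 the call ended without Z2 b or Z9 a or b (highest edgeR adjusted p 0.0719). The call of AFP ended without Z2 b or any Z9 well (highest edgeR adjusted p 0.106). TTR lost its call without Empty b, Z2 b or c, Z5 b or any Z9 well (highest edgeR adjusted p 0.137). For F12 the call ended without any Empty well, any Z2 well, Z5 b or c or any Z9 well (highest edgeR adjusted p 0.163). F12 and TTR were not called after the GC correction (edgeR adjusted p = 0.143 and 0.0541).

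In the acute phase and inflammation list, 0 rose and 2 fell of 21 tested, against 1.96% and 3.21% over all. Its median log2 fold change was -0.12. CEBPD, a transcription factor of the acute phase response, was at 46.3, 52.5 and 49.9 CPM in Z2 a, b and c and 34.6, 38.1 and 39.6 CPM in Z9 a, b and c (log2 fold change -0.40 ± 0.07 (SE), edgeR adjusted p = 0.00584) and held in all 12 omissions. In the fit of the 6 wells alone CEBPD was not called. CXCL8, the neutrophil chemokine, had 148 summed counts in Z9 and 243 in Z2, a Z2 over Z9 ratio of 1.74 (exact 95% interval 1.41 to 2.14, edgeR adjusted p = 0.0455). Among interferon and antigen presentation genes, 1 rose and 1 fell of 28 tested (median log2 fold change 0.00): the peptide transporter TAP2 rose (0.33, 0.0499) and B2M, the light chain of class I molecules, fell (-0.28, 0.0151). The call of B2M ended without Z9 a or b (highest edgeR adjusted p 0.0747). TAP2 lost its call without any Empty well, Z2 b or c, Z5 b or c or any Z9 well (highest edgeR adjusted p 0.198). For CXCL8 the call ended without Empty a or b, any Z2 well, any Z5 well or any Z9 well (highest edgeR adjusted p 0.165). CXCL8 and TAP2 were not called after the GC correction (edgeR adjusted p = 0.0929 and 0.0761).

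In drug metabolism, 2 phase I and alcohol genes rose and 1 fell of 23 tested, against 1.96% and 3.21% over all. The list's median log2 fold change was -0.02. AOC2, an amine oxidase, was at 5, 4.78 and 4.84 CPM in Z2 a, b and c and 7.27, 6.34 and 8.36 CPM in Z9 a, b and c (log2 fold change 0.59 ± 0.10 (SE), edgeR adjusted p = 0.00917). It held in all 12 omissions but not in the fit of the 6 wells alone (edgeR adjusted p = 0.0861). ALDH1A1, a retinaldehyde dehydrogenase, was at 167, 148 and 148 CPM in Z2 a, b and c and 191, 191 and 194 CPM in Z9 a, b and c (log2 fold change 0.32 ± 0.07 (SE), edgeR adjusted p = 0.0239), and FMO5, a flavin monooxygenase, fell (-0.30, edgeR adjusted p = 0.0357). In conjugation, 1 rose and 1 fell of 25 tested (median log2 fold change -0.07): GSTA1, an alpha-class glutathione transferase, rose from 0.921, 0.692 and 0.696 to 1.77, 1.75 and 1.57 CPM over wells a to c (log2 fold change 1.14 ± 0.28 (SE), edgeR adjusted p = 0.0354), and MGST2 fell (-0.28, 0.0276). Reads of GSTA1 are uncertain because near-identical GSTA genes exist. Among NRF2 targets, 1 rose and 0 fell of 25 tested (median log2 fold change 0.09), the 1 being the sulfiredoxin SRXN1 (0.25, 0.0276). The call of SRXN1 ended without Z2 b or any Z9 well (highest edgeR adjusted p 0.0959). ALDH1A1 and MGST2 lost their calls without Z2 b or c or any Z9 well (highest edgeR adjusted p 0.0816 and 0.0987). For GSTA1 the call ended without Z2 b or c, Z5 b or any Z9 well (highest edgeR adjusted p 0.155). The call of FMO5 ended without Empty b, Z2 b or c, Z5 b or any Z9 well (highest edgeR adjusted p 0.164). FMO5 was not called after the GC correction (edgeR adjusted p = 0.0745).

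Among genes of the unfolded protein and integrated stress response, 2 rose and 1 fell of 28 tested, against 1.96% and 3.21% over all. The list's median log2 fold change was 0.21, and 24 of its 28 members had a positive difference. Without Z2 b the median was 0.09 and 1 rose. The mean over the list's members of log2 CPM, each centred on its 12 libraries, was 0.01, -0.27 and -0.02 in Z2 a, b and c and 0.21, 0.11 and -0.03 in Z9 a, b and c. The lines overlapped, with Z2 b lowest and Z9 c below Z2 a and Z2 c. The median was the highest of the lists with all 12 libraries, but without Z2 b it lay below that of the immediate early and KLF genes (0.17). ATF3, a stress-induced transcription factor, was at 32.4, 33.6 and 30.03 CPM in Z2 a, b and c and 35.6, 41 and 45.1 CPM in Z9 a, b and c (log2 fold change 0.34 ± 0.08 (SE), edgeR adjusted p = 0.0278). GDF15, a secreted stress cytokine, was at 908, 980.2 and 903 CPM in Z2 a, b and c and 1003, 1194 and 1282 CPM in Z9 a, b and c (log2 fold change 0.32 ± 0.09 (SE), edgeR adjusted p = 0.0488). Neither overlapped, and Z9 a was the lowest Z9 well of both. VLDLR fell (-0.34, edgeR adjusted p = 0.0371). Among p53 targets, 1 rose and 0 fell of 20 tested (median log2 fold change 0.09), the 1 being the nuclease AEN (0.32, 0.0159). Among immediate early and KLF genes, 1 rose and 0 fell of 28 tested (median log2 fold change 0.11), the 1 being ATF3. The call of AEN ended without Z9 a or b (highest edgeR adjusted p 0.0729). ATF3 lost its call without Z2 c or Z9 b or c (highest edgeR adjusted p 0.0957). For VLDLR the call ended without Z2 b or c, Z5 b or c or any Z9 well (highest edgeR adjusted p 0.169). The call of GDF15 ended without Empty a, any Z2 well, any Z5 well or Z9 b or c (highest edgeR adjusted p 0.152). GDF15 and VLDLR were not called after the GC correction (edgeR adjusted p = 0.30 and 0.0937).

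Iron genes had 4 members that fell and 0 that rose of 23 tested, against 3.21% and 1.96% of all tested genes. Their median log2 fold change was -0.05, and none of these calls stood without Z2 b, Z2 c or any Z9 well. In those fits 0 fell by edgeR's test, 1 rose without Z2 c, and 9 to 12 had an unadjusted p under 0.05, while DESeq2 called 8 with all 12 libraries. With all 12 libraries, 3655 of all 15289 tested genes had such a p in edgeR's test and DESeq2 called 1526. Those that fell were NCOA4 (-0.23, 0.0282), CP (-0.43, 0.030), SLC11A2 (-0.27, 0.0418) and TFRC (-0.22, 0.0496), which release iron from ferritin, oxidise it in plasma, carry it across membranes and take up transferrin. Of metallothionein and zinc genes 0 were called of 14, the nearest being the zinc importer SLC39A8 (-0.71, edgeR adjusted p = 0.0678), with 5 at an unadjusted p under 0.05 and 1 called by DESeq2. Among ABC transporters, 2 rose and 2 fell of 31 tested (median log2 fold change 0.05). Those named here are ABCA1 above, which fell, and ABCA3, which rose (0.49, 0.0354). The calls of NCOA4 and CP ended without Z2 b or c or any Z9 well (highest edgeR adjusted p 0.0959 and 0.124). ABCA3 lost its call without Z2 b or c, Z5 b or any Z9 well (highest edgeR adjusted p 0.109). For SLC11A2 the call ended without any Empty well, Z2 b or c, Z5 b or c or any Z9 well (highest edgeR adjusted p 0.152). The call of TFRC ended without any Empty well, Z2 b or c, any Z5 well or any Z9 well (highest edgeR adjusted p 0.158). CP, SLC11A2, TFRC and ABCA3 were not called after the GC correction (edgeR adjusted p = 0.0673, 0.0673, 0.143 and 0.0885).

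Among matrix, laminin and integrin genes, 2 rose and 5 fell of 31 tested (median log2 fold change -0.11), against 1.96% and 3.21% over all. The number that fell was 2 without Z2 b, 1 without Z2 c, 1 without Z9 c, 2 without Z5 b and 3 after the GC correction. Without Z9 a or b 0 passed edgeR's test, where 13 and 9 had an unadjusted p under 0.05, while DESeq2 called 8 with all 12 libraries. Over all 15289 tested genes in the fit of 12 libraries, 3655 had such a p in edgeR's test and DESeq2 called 1526. The members that rose lost their calls without Z2 b, Z2 c or any Z9 well. LAMB1, a laminin chain, was at 393, 462 and 428 CPM in Z2 a, b and c and 335, 353 and 354 CPM in Z9 a, b and c (log2 fold change -0.30 ± 0.06 (SE), edgeR adjusted p = 0.0151), without overlap. MMP15, a membrane-type metalloprotease, was at 184, 179 and 204 CPM in Z2 a, b and c and 155, 170.0 and 157 CPM in Z9 a, b and c (log2 fold change -0.23 ± 0.06 (SE), edgeR adjusted p = 0.0341), and with the GC correction it was lower still (-0.35, edgeR adjusted p = 0.00257). The integrin subunits were ITGA2 (-0.39, 0.0298), ITGB5 (-0.24, 0.0354) and ITGB1 (-0.26, 0.0357). Outside the naming rule, the 2 that rose were the laminin chain LAMB2 (0.19, 0.0391) and the collagen COL27A1 (0.30, 0.0439). In adhesion and junctions, 0 rose and 4 fell of 27 tested (median log2 fold change -0.01), among them HAVCR1 (-0.77, 0.0184), CEACAM1 (-0.25, 0.0305) and PTGFRN (-0.23, 0.0492). Among cathepsins and cystatins, 0 rose and 2 fell of 16 tested (median log2 fold change -0.07): the inhibitor CSTB (-0.37, 0.0368) and the legumain gene LGMN (-0.20, 0.0450). The call of LAMB1 ended without Z9 a or b (highest edgeR adjusted p 0.0712). ITGA2, HAVCR1 and CEACAM1 lost their calls without Z2 b or c or any Z9 well (highest edgeR adjusted p 0.10, 0.0780 and 0.109). For MMP15 the call ended without Z2 c, Z5 b or any Z9 well (highest edgeR adjusted p 0.118). The call of ITGB5 ended without Z2 b or c, Z5 b or any Z9 well (highest edgeR adjusted p 0.140). CSTB lost its call without Empty c, Z2 b or c, Z5 b or any Z9 well (highest edgeR adjusted p 0.171). For ITGB1 the call ended without Empty b or c, Z2 b or c, Z5 b or c or any Z9 well (highest edgeR adjusted p 0.116). The call of LAMB2 ended without any Empty well, Z2 b or c, Z5 b or any Z9 well (highest edgeR adjusted p 0.134). PTGFRN lost its call without any Empty well, Z2 c, any Z5 well or any Z9 well (highest edgeR adjusted p 0.145). For COL27A1 and LGMN the calls ended without any Empty well, Z2 b or c, any Z5 well or any Z9 well (highest edgeR adjusted p 0.171 and 0.152). ITGA2, ITGB1, LAMB2 and COL27A1 were not called after the GC correction (edgeR adjusted p = 0.0515, 0.0757, 0.221 and 0.103).

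Calls in the signalling lists went in both directions. Among YAP targets and angiomotins, 2 rose and 0 fell of 22 tested (median log2 fold change -0.04), against 1.96% and 3.21% over all. AMOTL2, an angiomotin that binds YAP, was at 27.2, 28.9 and 25.1 CPM in Z2 a, b and c and 35.9, 34.2 and 35.8 CPM in Z9 a, b and c (log2 fold change 0.39 ± 0.07 (SE), edgeR adjusted p = 0.0127), without overlap, and the LIM protein AJUBA rose (0.31, edgeR adjusted p = 0.0308). Among WNT and beta-catenin targets, 1 rose and 1 fell of 23 tested (median log2 fold change 0.01): NOTUM, which inactivates WNT ligands, rose (0.23, 0.0378) and TNFRSF19 fell (-0.25, 0.0473). Among growth factor ligands and receptors, 1 rose and 1 fell of 27 tested (median log2 fold change -0.07): ERBB2 (0.17, 0.0391) rose and PDGFA (-0.54, 0.0461) fell. In glypicans and syndecans, with NOTUM counted again, 2 rose and 0 fell of 15 tested (median log2 fold change -0.03), so GPC4 was the only glypican called higher in the fit of 12 libraries. After the GC correction 1 of the list rose and 3 fell, and without Z2 b 1 rose and 1 fell. The call of AMOTL2 ended without Z9 a (highest edgeR adjusted p 0.0521). AJUBA lost its call without Z2 b or c or Z9 a or b (highest edgeR adjusted p 0.115). For TNFRSF19 the call ended without Empty b, Z2 b or c, any Z5 well or any Z9 well (highest edgeR adjusted p 0.162). The call of NOTUM ended without Empty a or b, Z2 b or c, Z5 b or c or any Z9 well (highest edgeR adjusted p 0.142). PDGFA lost its call without Empty b or c, Z2 b or c, Z5 b or c or any Z9 well (highest edgeR adjusted p 0.163). For ERBB2 the call ended without any Empty well, Z2 b or c, any Z5 well or any Z9 well (highest edgeR adjusted p 0.118). NOTUM, TNFRSF19 and ERBB2 were not called after the GC correction (edgeR adjusted p = 0.163, 0.0716 and 0.206).

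Lists of proliferation, hepatocyte factors and histones held no call in edgeR's test, where 1.96% of all tested genes rose and 3.21% fell. Of S phase and replication genes 0 of 35 passed, the nearest being RRM2, a ribonucleotide reductase subunit (-0.31, edgeR adjusted p = 0.0890). Of G2 and mitosis genes 0 of 34 passed, the nearest being the kinetochore gene NUF2 (-0.37, 0.0617). Of hepatocyte transcription factors 0 of 22 passed, the nearest being RXRA (0.16, 0.0746), and of replication-dependent histones 0 of 17, the nearest being HIST1H1C, now H1-2 (-0.21, 0.139). At an unadjusted p under 0.05 these 4 lists had 3, 4, 9 and 1 members, and DESeq2 called 2, 1, 1 and 0. Of all 15289 tested genes, 3655 had an unadjusted p under 0.05 in edgeR's test and DESeq2 called 1526. Among 78 cytosolic ribosomal protein genes and relatives, 1 rose, RPL22L1 (0.35, 0.0276), and of RNA-binding and splicing factors 1 of 33 rose, RBM23 (0.66, 0.0454). The call of RPL22L1 ended without Z2 b or c or Z9 a or b (highest edgeR adjusted p 0.122). RBM23 lost its call without Empty a, Z2 b or c, any Z5 well or any Z9 well (highest edgeR adjusted p 0.152).

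**Figure D5:**
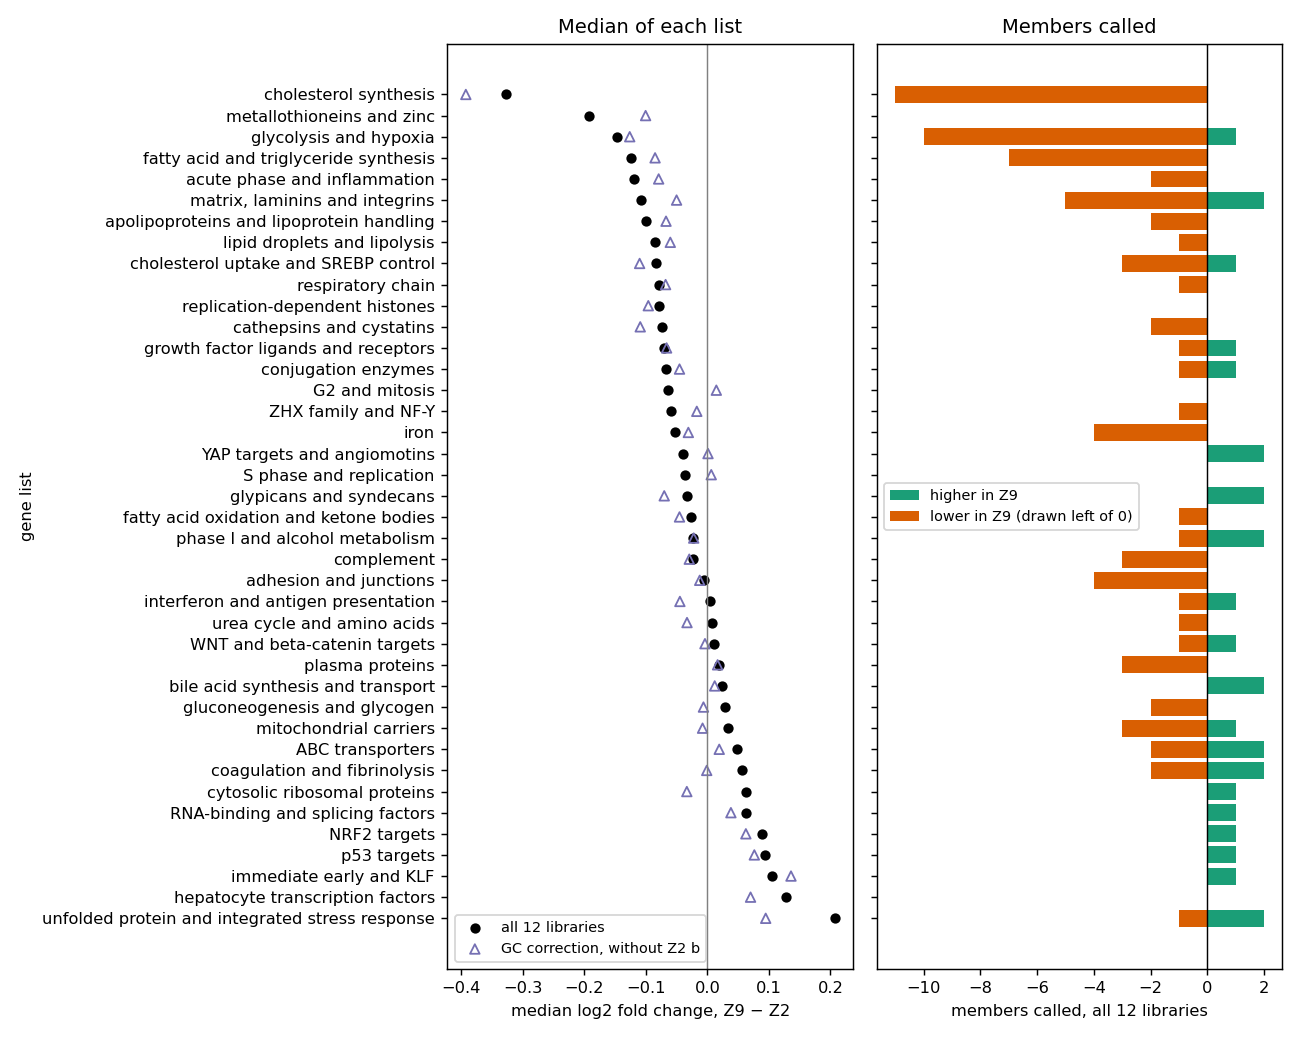
Left, the median log2 fold change of Z9 minus Z2 (x axis) over the tested members of each gene list (y axis), as dots for all 12 libraries and triangles for the GC-corrected fit without Z2 b. Right, the number of members called in the fit of 12 libraries, with those lower in Z9 drawn left of 0: cholesterol synthesis lies lowest, at -0.33, with 11 members lower, and the stress response lies highest with all 12 libraries, at 0.21, but not without Z2 b.

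Ranked by size, the 12 protein-coding genes with the largest increases and a mean of at least 1 log2 CPM included GSTA1, PLD6, EVI5L, AOC2 and RBM23 from above. RDH12, a retinol dehydrogenase, was at 1.92, 1.94 and 1.77 CPM in Z2 a, b and c and 3.23, 2.77 and 3.02 CPM in Z9 a, b and c (log2 fold change 0.68 ± 0.16 (SE), edgeR adjusted p = 0.0288). CPLX1, a complexin of vesicle fusion, was at 7.50, 5.46 and 5.98 CPM in Z2 a, b and c and 8.59, 10.6 and 9.56 CPM in Z9 a, b and c (log2 fold change 0.60 ± 0.14 (SE), edgeR adjusted p = 0.0276). GLIS2, a zinc-finger transcription factor, was at 11.9, 6.30 and 8.67 CPM in Z2 a, b and c and 13.7, 13.3 and 14.1 CPM in Z9 a, b and c (log2 fold change 0.61 ± 0.16 (SE), edgeR adjusted p = 0.0452). In CPLX1 and GLIS2, Z2 b was the lowest of the 6 wells. The rest, as log2 fold change and edgeR adjusted p, were the protease gene CTRL (0.66, 0.0357), the mitochondrial acyl-CoA synthetase ACSM2B (0.58, 0.0257), the zinc-finger gene ZSCAN21 (0.55, 0.0341) and the adhesion receptor ADGRV1 (0.53, 0.0310). ACSM2B has the near copy ACSM2A, so its counts are uncertain. The call of ACSM2B ended without Z2 b or c or Z9 a or b (highest edgeR adjusted p 0.0952). RDH12, CPLX1 and ADGRV1 lost their calls without Z2 b or c or any Z9 well (highest edgeR adjusted p 0.0964, 0.111 and 0.132). For CTRL the call ended without Z2 b or c, Z5 b or c or Z9 a or b (highest edgeR adjusted p 0.137). The call of ZSCAN21 ended without Z2 b or c, Z5 b or any Z9 well (highest edgeR adjusted p 0.118). GLIS2 lost its call without any Empty well, Z2 b or c, any Z5 well or any Z9 well (highest edgeR adjusted p 0.119). CTRL and GLIS2 were not called after the GC correction (edgeR adjusted p = 0.0525 and 0.0508).

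The 12 largest decreases by the same rule included SUSD2, MAB21L3 and HAVCR1. TUBB1, a beta-tubulin best known from platelets, was at 49.4, 70.6 and 63.9 CPM in Z2 a, b and c and 28, 33.4 and 31.1 CPM in Z9 a, b and c (log2 fold change -0.99 ± 0.17 (SE), edgeR adjusted p = 0.0177). Z2 b was its highest well, and the rule itself had required wells that did not overlap. ASB2, a substrate adaptor of a ubiquitin ligase, was at 14.5, 19.2 and 18.5 CPM in Z2 a, b and c and 10.00, 9.73 and 11.8 CPM in Z9 a, b and c (log2 fold change -0.73 ± 0.13 (SE), edgeR adjusted p = 0.0110). PRKD1, protein kinase D1, was at 5.92, 6.99 and 6.21 CPM in Z2 a, b and c and 3.82, 3.94 and 4.16 CPM in Z9 a, b and c (log2 fold change -0.68 ± 0.14 (SE), edgeR adjusted p = 0.0151). TUBB1, ASB2 and PRKD1 were also called in the fit of the 6 wells alone. FIBCD1, a receptor for acetylated sugars, was at 2.25, 3.48 and 3.57 CPM in Z2 a, b and c and 1.03, 1.94 and 1.59 CPM in Z9 a, b and c (log2 fold change -1.02 ± 0.21 (SE), edgeR adjusted p = 0.0179), with Z9 a lowest. The others were PTGDR2 (-0.85, 0.0276), PMP22 (-0.79, 0.0179), EFCAB12 (-0.75, 0.0414), ADAMTS6 (-0.72, 0.0292) and ARHGAP40 (-0.67, 0.0294). Of these, PTGDR2 is a prostaglandin D2 receptor, PMP22 a myelin membrane protein, ADAMTS6 a matrix metalloprotease and ARHGAP40 a GTPase activator. The call of PMP22 ended without Z2 b or Z9 a (highest edgeR adjusted p 0.0788). PRKD1 lost its call without Z9 a or b (highest edgeR adjusted p 0.0657). For FIBCD1 the call ended without Z2 b or c or Z9 a (highest edgeR adjusted p 0.0780). The call of ASB2 ended without Z2 b or Z9 a or b (highest edgeR adjusted p 0.0609). TUBB1 lost its call without Z2 b or any Z9 well (highest edgeR adjusted p 0.0803). For PTGDR2 the call ended without Z2 b or c or Z9 a or b (highest edgeR adjusted p 0.110). The call of ARHGAP40 ended without Z2 c or any Z9 well (highest edgeR adjusted p 0.0950). ADAMTS6 lost its call without Z2 b or c or any Z9 well (highest edgeR adjusted p 0.102). For EFCAB12 the call ended without Empty c, Z2 b or c, Z5 b or c or Z9 a or b (highest edgeR adjusted p 0.154).

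Below a mean of 1 log2 CPM, 17 genes rose and 18 fell, and these included 9 of the 10 called genes at least 2-fold higher and 11 of the 12 at least 2-fold lower. Up to 4 per direction were named, those with the largest fold change, and beside GPC4 and SLCO1B3 from above they are given here by summed counts and ratio with the exact 95% counting interval. GLP2R, a gut hormone receptor, had 36 and 7 summed counts in Z9 and Z2, 4.87 (2.14 to 13). LOC101927272, a long noncoding RNA, had 105 and 35 summed counts in Z9 and Z2, 2.84 (1.92 to 4.29). Among those lower, with ratios of Z2 over Z9, KIAA1549L had 12 and 56 summed counts in Z9 and Z2, 4.93 (2.61 to 10.1). COL17A1, a hemidesmosome collagen, had 12 and 48 summed counts in Z9 and Z2, 4.23 (2.21 to 8.74). RND3, an atypical small GTPase, had 18 and 70 summed counts in Z9 and Z2, 4.11 (2.42 to 7.33). DUOXA2, the maturation factor of the oxidase DUOX2, had 15 and 50 summed counts in Z9 and Z2, 3.52 (1.95 to 6.76). In none of the 6 did wells overlap, but the counts are small. Their edgeR adjusted p values were 0.0499, 0.0275, 0.0305, 0.0378, 0.0283 and 0.0336 in that order. The call of RND3 ended without Z2 c or Z9 a or b (highest edgeR adjusted p 0.106). LOC101927272 lost its call without Z2 b or any Z9 well (highest edgeR adjusted p 0.10). For KIAA1549L and DUOXA2 the calls ended without Z2 b or c or any Z9 well (highest edgeR adjusted p 0.118 and 0.109). The call of COL17A1 ended without Z2 b or c, Z5 b or c or any Z9 well (highest edgeR adjusted p 0.128). GLP2R lost its call without Empty b, any Z2 well, any Z5 well or any Z9 well (highest edgeR adjusted p 0.149). GLP2R was not called after the GC correction (edgeR adjusted p = 0.0601).

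Among cell type markers, 1 of 8 hepatocyte genes rose and 1 fell, against 1.96% and 3.21% of all tested genes. Of the 4 immune markers tested, 0 rose and 1 fell. The 8 hepatocyte markers summed to 32265 to 35310.2 CPM in Z2 and 32747 to 33389.7 in Z9 wells, with FGB higher and TTR lower in Z9. Of 8 cholangiocyte markers 4 were tested. These summed to 1503 to 1722 and 1423 to 1616 CPM, with 0 called and KRT19 nearest (-0.25, edgeR adjusted p = 0.224). The 4 tested of 8 stellate and fibroblast markers summed to 44.9 to 49.99 and 49 to 58 CPM, with ACTA2 nearest to a call (0.19, 0.0722). COL1A2 and DCN were at 0 in all 6 wells. The 5 tested of 8 endothelial markers summed to 9.37 to 11 and 8.71 to 10.2 CPM, with LYVE1 nearest (-0.60, 0.129), and KDR and EMCN were at 0. The 4 tested of 8 immune markers summed to 1915 to 2102 and 1591 to 1754 CPM, nearly all of it LYZ, which was lower in Z9 (-0.24, 0.0305). PTPRC, MARCO and CD3E were at 0. The call of LYZ ended without Z2 b, Z5 b or any Z9 well (highest edgeR adjusted p 0.116). LYZ was not called after the GC correction (edgeR adjusted p = 0.0722).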

How the data were processed

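Read counts per gene of 12 HepG2 libraries were analysed, and the Z9 wells were compared with the Z2 wells. The authors deposited raw read counts under gene symbols. The submitters' processing notes name STAR, featureCounts and hg38. The sources used here give no versions, annotation, strand setting or treatment of multiply mapped reads. Reads of overlapping or antisense genes, and of near-identical copies, therefore cannot be told apart with certainty. Of 26485 genes, 21343 had a count and 15289 passed filterByExpr.

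Counts were tested with edgeR 4.0.16 (R 4.3.3): TMM scaling, a robust quasi-likelihood fit of 4 group means to all 12 libraries (8 residual degrees of freedom, common biological coefficient of variation 0.0696), the contrast Z9 minus Z2, and Benjamini-Hochberg adjustment over all tested genes. The SE was obtained as log2 fold change over the root of F. Count ratios have exact 95% intervals (conditional on the sum), for counting error alone. Chi-square per degree of freedom between sister wells was 6.38 to 45.8, so no library repeated another. The GC correction removed, per library, a lowess trend (span 0.3) of log counts on transcript GC content from GENCODE, known for 96.4% of tested genes, and was chosen after seeing the data. The scripts were tested on simulated data.

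Members and the 46 gene lists were chosen with earlier results of these data known. The rule named ZHX1, ZHX2 and ZHX3, the 12 largest increases and 12 largest decreases among called protein-coding genes whose wells did not overlap and whose mean reached 1 log2 CPM, up to 4 per direction below that mean, up to 8 per direction of the genes that held in all well omissions, and up to 5 called members per list (otherwise the nearest one). It gave 126 genes, of which 116 were called. Other genes that held, other members of the cholesterol lists and other called list members were named after their values were seen. A list of 13 mitochondrially encoded genes was not analysed here. Some list members are counted but not reported here by name. Coordinates and promoters come from RefSeq tables of GRCh38.p14 and gene symbols were matched to them, 13971 by symbol and 962 by synonym. Alternatives were DESeq2 1.42.0, other filters, fewer lines in the fit, a replicate block and each library left out.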

Additional observations from a re-analysis of the deposited data

How the results depend on the processing

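With every alternative, each gene called with all 12 libraries that was tested kept its direction (776 of 790 with the minimum of 1 CPM in 3 libraries, 790 in the others; DESeq2 gave an adjusted p for 767), and ZHX3 was called in none. The count of genes differing was 1526 by the DESeq2 Wald test, 32 in a fit of Z2 and Z9 only and 259 in a fit of Z2, Z5 and Z9. It ranged from 75 to 2399 when 1 library was left out (537 without Empty a, 456 without Empty b, 518 without Empty c, 642 without Z5 a, 372 without Z5 b, 452 without Z5 c). Chosen after seeing the data, the GC correction gave 520, 169 with Z2 b left out as well, and 79 in the fit of Z2 and Z9 only. Genes at least 2-fold different, 22 with all libraries, were 5 by DESeq2, 8 with a minimum of 1 CPM in 3 libraries, 2 in the fit of Z2 and Z9 only, 13 with Z5 added, 2 to 82 with 1 library left out, 3 after the GC correction without Z2 b and 6 after it in the fit of Z2 and Z9 only. The share of higher genes among calls was 37.8% with all libraries, 18.8% in the fit of Z2 and Z9 only, 24.9% after the GC correction without Z2 b and 21.5% after it in the fit of Z2 and Z9 only. The cause of these changes was not tested. Other filters, DESeq2 size factors and a fit that was not robust gave 698 to 851 calls.

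Of the 116 named genes called, 21 passed in the fit of Z2 and Z9 only, 83 after the GC correction and 26 without Z9 a. The 25 genes that held were all called with DESeq2 size factors, both other filters and every library omission, and 24, 24, 24 and 23 of them by DESeq2, after the GC correction, after it without Z2 b, and after it in the fit of Z2 and Z9 only.

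Whether the replicate letters pair the wells, as by a shared day or batch, is not in the labels and was not settled here. Deviations of Z2 and Z9 wells from their line means correlated at 0.173 for a, 0.0100 for b and -0.0549 for c. The value for a was the largest of any pair of letters, but not every well correlated best with its own letter. A replicate block gave 1512 calls (34 at least 2-fold) with 12 libraries and 210 (12 at least 2-fold) with Z2 and Z9 only. Low counts limit the genes below 1 log2 CPM, whose ratios have wide intervals.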

Other observations

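After the GC correction, which was chosen after seeing the data, 39 genes were called in every fit without 1 Z2 or Z9 well and in the fit of the 6 wells alone, 7 higher and 32 lower in Z9. Of these, 22 were among the 25 that held without the correction, and 17 were not. The added lower genes, with corrected log2 fold changes, included 2 more enzymes of cholesterol synthesis, FDPS (-0.42) and MVK (-0.42), and FADS2, a fatty acid desaturase (-0.37). Others were GPC1 (-0.36), a second glypican, LRG1 (-0.43), a secreted acute phase glycoprotein, RTN4R (-1.15), the Nogo receptor, MMP15 (-0.35), LIMK2 (-0.28), a kinase of the actin cytoskeleton, and MICALL2 (-0.43), DQX1 (-0.44), PPP2R2C (-0.51), DCAF6 (-0.35) and CCDC183-AS1 (-0.52). The added higher genes were FST (0.33), which encodes follistatin, an activin antagonist, JMY (0.37), an actin nucleator and p53 cofactor, IKZF5 (0.33), a zinc-finger factor, and RRP12 (0.26), a ribosome assembly factor.

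By position on GRCh38.p14, 250 windows of 10 Mb held at least 20 tested genes. Over all tested genes, 1.96% were called higher and 3.21% lower. The 3 windows with the lowest median log2 fold change were chromosome 5 from 40 to 50 Mb (25 genes, median -0.19, 0 higher and 3 lower), chromosome 2 from 180 to 190 Mb (24 genes, median -0.13, 0 higher and 2 lower) and chromosome 9 from 70 to 80 Mb (27 genes, median -0.13, 1 higher and 1 lower). The 3 highest were chromosome 22 from 50 to 60 Mb (28 genes, median 0.17, 0 higher and 0 lower), chromosome 17 from 80 to 90 Mb (78 genes, median 0.14, 5 higher and 0 lower) and chromosome 19 from 40 to 50 Mb (246 genes, median 0.12, 10 higher and 3 lower). Median GC content was 40.1%, 39.3% and 41.9% in the lowest windows and 63.8%, 62.1% and 59.5% in the highest. After the GC correction the medians were -0.07, -0.06 and -0.07 in the lowest and 0.09, 0.06 and 0.05 in the highest. Genes called higher and lower then numbered 0 and 2, 0 and 1, and 1 and 0 in the lowest windows. In the highest windows they numbered 0 and 0, 0 and 0, and 2 and 3, against 1.1% and 2.3% of all tested genes.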
